A study of Mus musculus with 15 samples.

Results

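The PPAR-alpha fatty acid oxidation genes are 34 mouse genes that were taken by symbol from a table of exon counts: the receptor Ppara and 33 genes of fatty acid uptake, activation, oxidation and disposal that are commonly listed as its targets. They are 34 of 38087 gene rows in that table. All 34 passed the filter on low counts, which left 17405 genes for testing. By role they are the receptor, 3 genes of uptake, binding and activation, 8 peroxisomal genes, 10 genes of the mitochondrial carnitine shuttle and beta-oxidation, 1 ketogenic gene, 7 thioesterases and acyltransferases, and 4 other targets.

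PPAR-alpha is a nuclear receptor that is activated by fatty acids and their derivatives and by fibrate drugs. It pairs with the retinoid X receptor and binds paired copies of a short hexamer that are separated by a single base, a DR1 element. In liver it is known for switching on the import, activation and oxidation of fatty acids during fasting, and for multiplying peroxisomes in rodents.

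Total RNA depleted of ribosomal RNA was sequenced from primary mouse hepatocytes that had been frozen, thawed and plated on collagen under a Geltrex overlay; donors were CD-1 mice, female or male. Every group was plated with fetal bovine serum and then received the same base medium, which held dexamethasone, insulin, transferrin, selenous acid, albumin and linoleic acid, a polyunsaturated fatty acid. On the next day it was supplemented with 25% mouse serum for 24 h, and growth hormone or its vehicle, PBS, was then given for 2 h. Serum came from conventionally raised (ConvR) males, conventionally raised females or germ-free (GF) females, which are raised without microbes. The 5 groups were male hepatocytes in conventional male serum (n = 3 libraries), female hepatocytes in conventional male serum (n = 3), in conventional female serum (n = 2), in germ-free female serum (n = 2), and in germ-free female serum with 8 ng per ml of mouse growth hormone (n = 3). The first 4 groups received vehicle. Replicates 2 and 3 represent the 2 smaller groups. Male and female cells came from separate donors, and effects of donor sex and of the donor stock cannot be told apart. The sources do not say whether replicates were separate cultures, animals or serum pools, and p-values therefore measure only the spread between these libraries, which may be technical.

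Library totals ran from 34097400 to 48742274 counts. Xist was counted at most 3 times in a male library and at least 9654 times in a female one, as labelled. The summed level of 8 hepatocyte markers was 24597 to 25055 CPM (counts scaled to a common library size, with TMM factors) in the male libraries and 11237 to 14681 CPM in the female ones. Markers of other cells were lower: 7 Kupffer cell and macrophage genes summed to 80.2 to 168.9 CPM, 7 endothelial genes to 11.8 to 52.1 CPM, cholangiocyte genes to 28.6 to 49.2 CPM, 7 stellate cell and fibroblast genes to 13.3 to 29.7 CPM, and 6 lymphocyte and neutrophil genes to 1.03 to 2.97 CPM. Socs2, a growth hormone target, had 1131 to 1480 raw counts with the hormone and 523 to 643 with vehicle in germ-free serum. Library totals were larger with the hormone (41584999 to 48742274) than with vehicle in that serum (35442492 to 40393393). Of the other vehicle libraries, those in conventional female serum had 1188 and 802 Socs2 counts. Female cells in male serum had 590, 590 and 647, and male cells 350, 421 and 431. Female libraries differed in their Xist counts, which were highest in replicate 2 of conventional female serum (23315) and in replicate 1 with growth hormone (32396).

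The promoters below are shown because they belong to the genes on which the comparisons turn: Fabp1 separated the cells of the 2 donor stocks, Ehhadh and Acot2 differed most between the sera among oxidation enzymes and thioesterases, and Cd36 and Acot4 hold the other matches to a DR1 element before their start sites. Sequences are from RefSeq (GRCm38.p6, which has the coordinates of mm10), 5′ to 3′ on the strand of the gene. The motif searched was a direct repeat of AGGTCA with any 1 base between the copies, on both strands, with up to 2 mismatches, in windows of 250 bases before to 50 bases after each start. Capitals mark the match, which here lies on the opposite strand in each case.
Fabp1, chr6:71199629-71199826, plus strand: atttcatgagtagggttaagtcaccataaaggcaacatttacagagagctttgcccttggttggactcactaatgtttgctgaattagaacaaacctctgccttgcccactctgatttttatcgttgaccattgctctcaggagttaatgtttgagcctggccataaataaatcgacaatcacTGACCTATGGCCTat
Cd36, chr5:17835897-17836146, minus strand: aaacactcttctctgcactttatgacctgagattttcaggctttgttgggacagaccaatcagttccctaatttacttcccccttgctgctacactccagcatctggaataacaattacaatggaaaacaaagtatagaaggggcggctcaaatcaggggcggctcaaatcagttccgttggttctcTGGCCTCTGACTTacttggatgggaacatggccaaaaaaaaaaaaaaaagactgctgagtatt
Acot4, chr12:84038129-84038378, plus strand: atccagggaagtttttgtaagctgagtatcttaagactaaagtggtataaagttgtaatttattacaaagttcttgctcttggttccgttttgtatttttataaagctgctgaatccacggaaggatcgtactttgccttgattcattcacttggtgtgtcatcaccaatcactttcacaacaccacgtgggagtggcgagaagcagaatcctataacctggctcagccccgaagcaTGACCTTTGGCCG
Ehhadh, chr16:21787835-21788084, minus strand, no match: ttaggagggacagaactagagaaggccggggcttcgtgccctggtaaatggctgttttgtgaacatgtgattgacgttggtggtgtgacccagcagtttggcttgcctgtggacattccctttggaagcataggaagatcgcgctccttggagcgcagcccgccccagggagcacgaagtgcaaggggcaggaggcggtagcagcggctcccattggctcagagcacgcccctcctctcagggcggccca
Acot2, chr12:83987611-83987860, plus strand, no match: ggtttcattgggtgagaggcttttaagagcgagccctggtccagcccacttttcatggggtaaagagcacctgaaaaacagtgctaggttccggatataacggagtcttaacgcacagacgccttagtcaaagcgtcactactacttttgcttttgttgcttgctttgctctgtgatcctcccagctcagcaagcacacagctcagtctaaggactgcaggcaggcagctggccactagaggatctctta

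The Fabp1 match had 1 mismatch and lay at positions -67 to -55 relative to the RefSeq start, and the sequence printed ends where an annotated exon begins. Matches with 2 mismatches lay at -63 to -51 in Cd36, before an internal start of that gene, and at -13 to -1 in Acot4. Slc25a20, the mitochondrial carnitine-acylcarnitine carrier, had a match after its start. RefSeq windows were found for 30 of the 34 genes, and 4 of the 30 (13.3%) held a match, beside 4.4% of the 27025 genes with a window. With up to 3 mismatches allowed the shares were 30% and 27.3%, and with 0 allowed they were 0% and 0.0481%. A match is a description of letters and not a binding site, and a window without one says only that these letters are not in it.

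Members differed widely in abundance. Per kilobase of exon and averaged over all libraries, Pdk4, the kinase that restrains entry of pyruvate into oxidation, was highest at 109.5 CPM per kb. The order differed in male cells, where Fabp1 stood at 107.2 CPM per kb, Acaa2 at 81.4 and Pdk4 at 55.9. Over all libraries Pdk4 was followed by Acadl, a long-chain acyl-CoA dehydrogenase, at 69.7, and Hsd17b4, the D-bifunctional enzyme of peroxisomal beta-oxidation, at 68.1. The thiolase Acaa2 and the very long-chain acyl-CoA dehydrogenase Acadvl stood at 59.9 and 58.3 CPM per kb. At the low end were Cd36, a fatty acid uptake receptor, at 0.669, the peroxisomal thioesterase Acot3 at 0.443 and Abcd2, a peroxisomal importer of acyl-CoAs, at 0.217 CPM per kb. Ppara itself had rank 22 in this order, at 6.00 CPM per kb.

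Libraries of a group did not agree equally well over these genes. In conventional female serum, replicate 2 was above replicate 3 for 31 of the 34 members, beside 51.4% of all genes tested. The median log2 ratio of replicate 2 to replicate 3 was 0.28 over the members and 0.01 over all genes. The ratio was 2.35 for Ehhadh, 2.18 for the mitochondrial carrier Ucp2 and 1.83 for the pantetheinase Vnn1. With growth hormone, replicate 1 was highest for 28 members, beside 38.2% of all genes. Among female hepatocytes in male serum, replicate 1 was lowest and replicate 2 highest for 24 members each, beside 34.5% and 37.4% of all genes. Calls on members that were lost without replicate 2 of conventional female serum are named beside their results. Such a fit leaves 1 library in that group, which is assumed to vary like the libraries of the other groups.

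**Figure D1:**
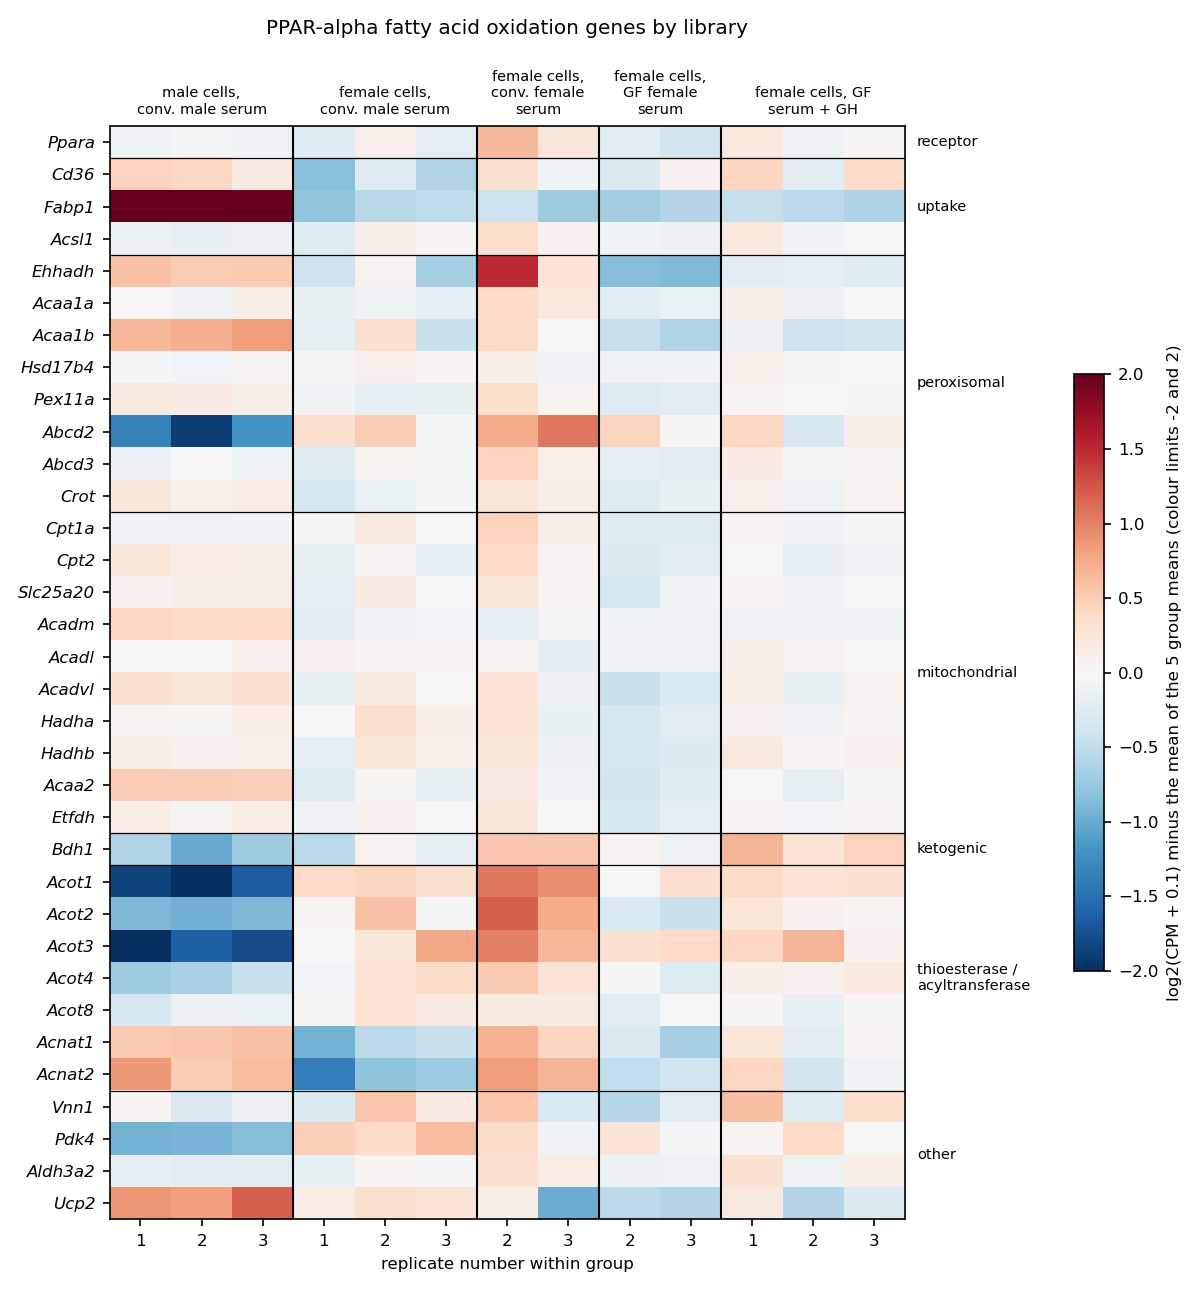
Level of each of the 34 genes (rows, by role) in each of the 13 libraries (columns, by group and replicate number), as log2 CPM minus the mean of the 5 group means. Red is above and blue below that mean; Fabp1 in the male libraries exceeds the colour limit, and replicate 2 in conventional female serum is redder than replicate 3 for most genes.

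The comparison of germ-free with conventional female serum on female hepatocytes asks whether the serum of mice raised with or without microbes leaves a different mark on the same cells. Germ-free serum gave lower levels of the receptor and of many of its oxidation genes. Of the 34 members 15 fell and none rose, 44.1%, beside 6.41% of all 17405 genes that passed in either direction, 3.54% that fell and 2.86% that rose (edgeR's quasi-likelihood test, Benjamini-Hochberg adjusted p under 0.05). The median log2 change was -0.45 over the members and -0.00 over all genes, and 33 of 34 changes were negative. By role, the receptor fell, as did 6 of 8 peroxisomal genes, 4 of 10 mitochondrial genes and 4 of 7 thioesterases and acyltransferases. None of the 3 uptake genes or the 4 other targets passed. The libraries of the 2 groups did not overlap for 26 of the 34 members, beside 8685 of all 17405 genes.

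Ppara (chr15:85734983-85802819, plus strand) stood at 35.9 and 27.1 CPM in conventional female serum and at 19.7 and 17.7 CPM in germ-free serum. Both conventional libraries were above both germ-free ones. It fell by 0.75 on the log2 scale (SE 0.14, adjusted p = 0.00498 by edgeR), a level 1.68-fold lower. Without replicate 2 of conventional female serum the difference was -0.54 (adjusted p = 0.088), and without replicate 3 of germ-free serum it was -0.68 (adjusted p = 0.0652).

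Among peroxisomal genes the largest fall was that of Ehhadh, the L-bifunctional enzyme that carries out the hydration and dehydrogenation steps of peroxisomal beta-oxidation (chr16:21761287-21787807, minus strand). It stood at 140.4 and 59.7 CPM in conventional female serum and at 27.6 and 27.1 CPM in germ-free serum. The 2 conventional libraries lay far apart, yet both were above both germ-free ones. Ehhadh fell by 1.87 on the log2 scale (SE 0.274, adjusted p = 0.00107 by edgeR), and by 1.13 without replicate 2 of conventional female serum (adjusted p = 0.00457). Acaa1a, a peroxisomal thiolase, stood at 71.9 and 63.5 CPM against 46.6 and 49.9 CPM, again without overlap. It fell by 0.49 (SE 0.0932, adjusted p = 0.00562 by edgeR). The difference was -0.40 without replicate 2 of conventional female serum (adjusted p = 0.0856) and -0.44 without replicate 2 of germ-free serum (adjusted p = 0.07). Its paralog Acaa1b fell by 0.74, Pex11a, which acts in peroxisome division, by 0.45, the importer Abcd3 by 0.49, and Crot, a carnitine octanoyltransferase, by 0.39. All 4 of these calls were lost without replicate 2 of conventional female serum, with log2 changes of -0.54, -0.30, -0.30 and -0.34. They were also lost without replicate 2 (-0.82, -0.42, -0.50 and -0.34) or replicate 3 (-0.68, -0.48, -0.49 and -0.44) of germ-free serum, at changes of about the same size as with all libraries.

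Among mitochondrial genes Cpt1a, the outer-membrane carnitine palmitoyltransferase that controls entry of long-chain fatty acids, was 190.0 and 148.8 CPM in conventional female serum and 116.6 and 115.6 CPM in germ-free serum. The groups did not overlap. Cpt1a fell by 0.55 (SE 0.097, adjusted p = 0.00375 by edgeR), and the difference was -0.36 without replicate 2 of conventional female serum (adjusted p = 0.0611). Its inner-membrane partner Cpt2 fell by 0.49, Acadvl by 0.45 and Etfdh, which passes electrons from the dehydrogenases to ubiquinone, by 0.38. Without the same library these 3 changes were -0.32, -0.27 and -0.27 and did not pass. Nor did they without replicate 2 (-0.47, -0.38 and -0.32) or replicate 3 (-0.51, -0.53 and -0.44) of germ-free serum, where the changes were about as large as with all libraries. Hadha and Hadhb, the subunits of the trifunctional protein, had log2 changes of -0.35 and -0.37 that did not pass (adjusted p = 0.0815 and 0.0786 by edgeR). Acadm and Acadl, the medium-chain and long-chain dehydrogenases, had values of 0.01 and -0.03, the nearest to 0 among the mitochondrial genes.

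Thioesterases, which release free fatty acids from coenzyme A, included the lowest adjusted p among the 34 members in this comparison. The mitochondrial enzyme Acot2 (chr12:83987861-83993873, plus strand) stood at 209.9 and 152.8 CPM in conventional female serum and at 73.9 and 67.0 CPM in germ-free serum. The lower conventional library was above the higher germ-free one by a wide margin. Acot2 fell by 1.36 (SE 0.164, adjusted p = 0.000221 by edgeR). Its cytosolic neighbour Acot1 (chr12:84009490-84018371, plus strand) stood at 34.2 and 31.4 CPM against 16.5 and 20.8 CPM, also without overlap. Acot1 fell by 0.82 (SE 0.122, adjusted p = 0.00121 by edgeR). The falls of Ehhadh, Acot1 and Acot2 passed in all 4 fits that each left out 1 of the 4 libraries.

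Acnat1 and Acnat2, peroxisomal acyltransferases of the type that conjugates fatty acids to amino acids, lie near each other on chromosome 4 (chr4:49447105-49473912 and chr4:49379840-49408151, minus strand). Acnat1 was 5.25 and 4.33 CPM in conventional female serum and 2.60 and 1.98 CPM in germ-free serum, and Acnat2 was 8.94 and 7.99 CPM against 3.51 and 3.79 CPM. Neither gene overlapped between the groups. Acnat1 fell by 1.06 (SE 0.207, adjusted p = 0.00668 by edgeR) and Acnat2 by 1.22 (SE 0.23, adjusted p = 0.00553). The call on Acnat1 was lost without replicate 2 of conventional female serum (-0.92, adjusted p = 0.0842) and without replicate 3 of germ-free serum (-0.89, adjusted p = 0.0894). That on Acnat2 was lost without replicate 2 of germ-free serum (-1.16, adjusted p = 0.0647). The ketogenic gene Bdh1, which makes 3-hydroxybutyrate from acetoacetate, had a log2 change of -0.57 that did not pass (adjusted p = 0.0621).

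The count of 15 depended on single libraries: it was 4 without replicate 2 of conventional female serum, 6 without either germ-free library and 22 without replicate 3 of conventional female serum. All genes moved with it: 1.51% passed without replicate 2 of conventional female serum, beside 11.8% of the members, and 6.76% without its replicate 3, beside 64.7%. Without replicate 2 or 3 of germ-free serum the shares of all genes were 1.9% and 1.78%, beside 17.6% of the members in each fit. Of 8 hepatocyte markers 3 (Cps1, Tat and Hnf4a) also fell in germ-free serum, by 0.58, 1.35 and 0.43 on the log2 scale. Of the markers of other cells 1 passed, the cholangiocyte gene Cftr, with 23 and 24 raw counts in germ-free serum against 5 and 1 (log2 change 3.19, adjusted p = 0.0199). Summed over each list, hepatocyte markers were 11237 to 11763 CPM in germ-free and 11574 to 13380 CPM in conventional female serum, 126 to 134 against 106 to 115 CPM for Kupffer cells and macrophages, and 27.1 to 29.7 against 16.997 to 24.9 CPM for stellate cells and fibroblasts. Most of the Kupffer cell and macrophage sum was Cd68, with means of 123.8 CPM in germ-free and 102.9 CPM in conventional female serum. Of the 6 genes tested in that list 4 had negative values. The part of these markers in the result was not tested. In bulk RNA, fewer cells of a type and less RNA per cell cannot be told apart.

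Most of the calls among other genes of the same pathways were falls. In lists chosen by function, 6 of 33 further peroxisomal genes fell and none rose, with Acox2, a branched-chain acyl-CoA oxidase, falling by 1.11, Ech1 by 0.76 and Hacl1 by 0.62. Of 17 further mitochondrial oxidation genes 5 fell, among them Decr1 by 0.59, Eci1 by 0.51 and the carnitine importer Slc22a5 by 0.48. Among further ketogenic genes Acat1, a mitochondrial acetoacetyl-CoA thiolase, fell by 0.86. Of 23 further PPAR-alpha targets tested 7 fell and 1 rose; the hormone gene Fgf21 fell by 1.67, Cidec, a lipid droplet protein, by 1.53 and Acot5 by 1.24. The falls of Acox2, Hacl1, Slc22a5 and Cidec passed in all 4 fits that left out 1 library. Those of Ech1, Decr1, Eci1, Acat1, Fgf21 and Acot5 did not pass without replicate 2 of conventional female serum. Nor did they without replicate 2 of germ-free serum (-0.69, -0.54, -0.47, -0.75, -1.77 and -1.49). Those of Eci1, Fgf21 and Acot5 were lost without replicate 3 of germ-free serum as well (-0.55, -1.59 and -1.05). Among 18 receptor partners and coregulators Hnf4a fell by 0.43 and Nrip1, a corepressor, rose by 0.48. The call on Nrip1 passed in none of the 4 such fits, and that on Hnf4a only without replicate 3 of conventional female serum.

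**Figure D2:**
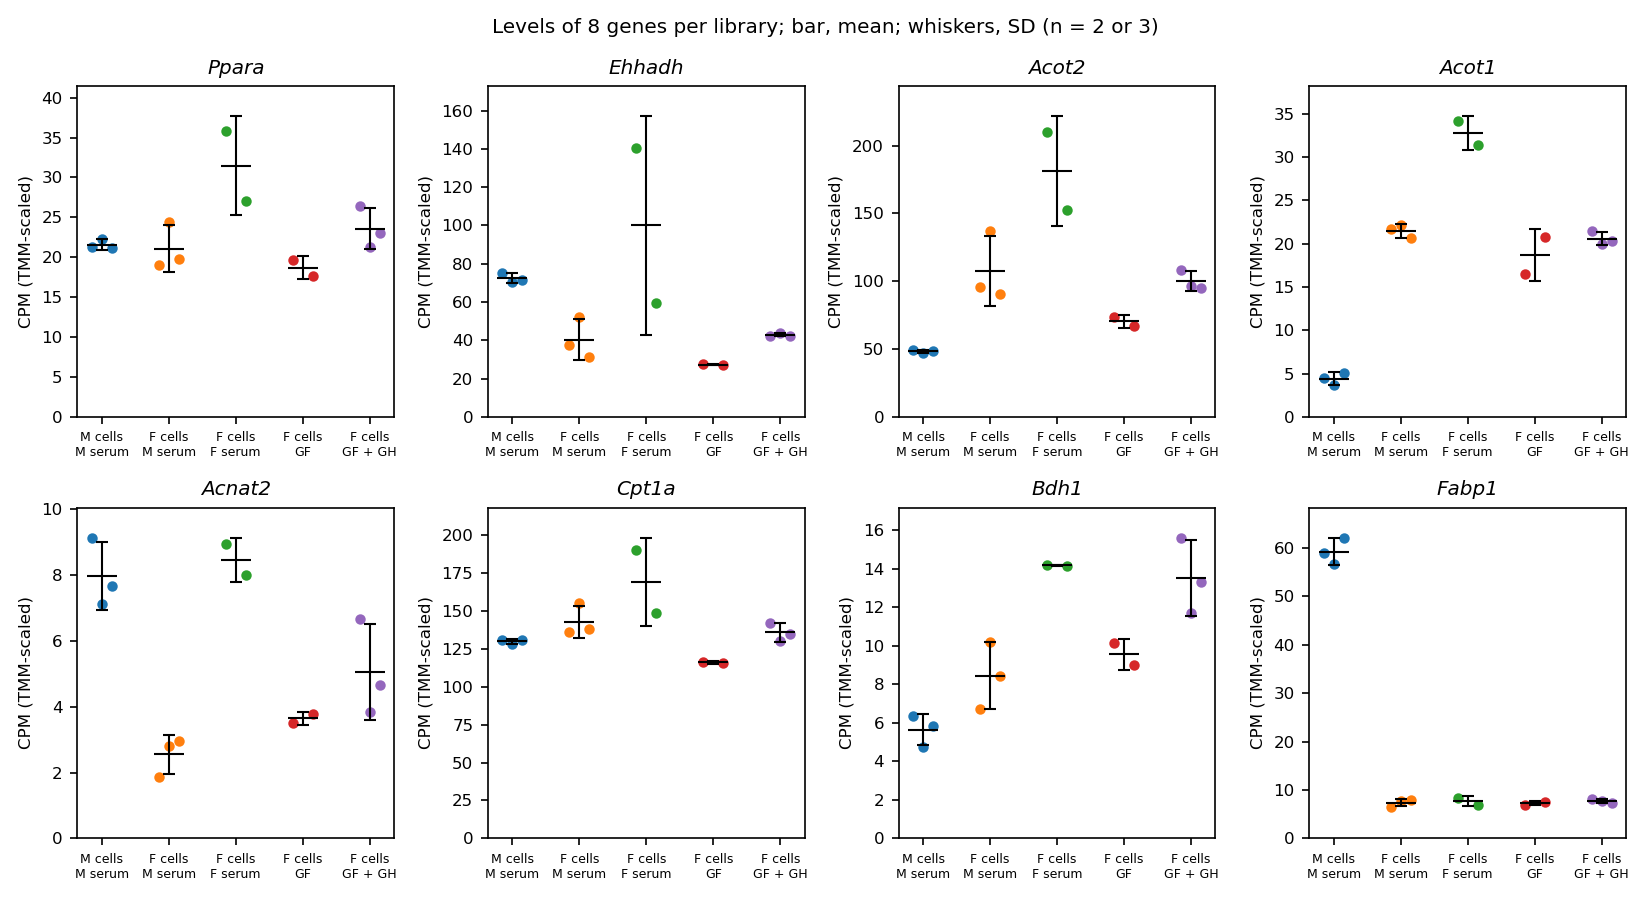
CPM of 8 genes in each library (points) of the 5 groups, with the group mean (bar) and SD (whiskers, n = 2 or 3). Both libraries in conventional female serum lie above those of the other female groups with vehicle for Ppara, Ehhadh, Acot2, Acot1, Acnat2 and Bdh1, while Fabp1 separates the male libraries (56.7 to 62.1 CPM) from all female ones (6.56 to 8.43 CPM).

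Conventional male serum was compared with conventional female serum on the same female cells, which sets the sex of the serum donor against an unchanged hepatocyte stock. This comparison shares the conventional female libraries with the one above, so that the values are not independent of it. Male serum gave lower levels of 12 of the 34 members and higher levels of none, 35.3%, beside 8.8% of all genes that passed in either direction, 4.85% that fell and 3.95% that rose (edgeR's quasi-likelihood test). The median log2 change was -0.27 over the members and 0.00 over all genes. The libraries of the 2 groups did not overlap for 17 of the 34 members, beside 6079 of all 17405 genes. The receptor and Bdh1 fell, with 5 of 8 peroxisomal genes and 4 of 7 thioesterases and acyltransferases, but only 1 of 10 mitochondrial genes.

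The acyltransferases differed most. Acnat2 was 1.87, 2.81 and 2.96 CPM in male serum against 8.94 and 7.99 CPM in conventional female serum, and Acnat1 was 1.61, 2.17 and 2.33 CPM against 5.25 and 4.33 CPM. All male-serum libraries were below both female-serum ones. Acnat2 fell by 1.73 (SE 0.211, adjusted p = 0.000111 by edgeR), a level 3.32-fold lower, and Acnat1 by 1.23 (SE 0.187, adjusted p = 0.000686). Acot1 was 21.7, 22.2 and 20.6 CPM against 34.2 and 31.4 CPM and fell by 0.61 (SE 0.109, adjusted p = 0.00258). Bdh1 was 6.72, 10.2 and 8.45 CPM against 14.2 CPM in both female-serum libraries and fell by 0.75 (SE 0.156, adjusted p = 0.00715). These 4 calls passed in each of the 5 fits that left out 1 library.

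The calls on Ppara, Ehhadh, Acot2 and Acaa1a were lost without 1 conventional female library. Ppara was 19.0, 24.4 and 19.8 CPM in male serum, below 35.9 and 27.1 CPM, and fell by 0.58 (SE 0.126, adjusted p = 0.00897 by edgeR). Ehhadh was 37.4, 52.4 and 31.3 CPM, below 140.4 and 59.7 CPM, and fell by 1.31 (SE 0.237, adjusted p = 0.00283). Acot2 was 95.5, 137.0 and 90.4 CPM, below 209.9 and 152.8 CPM, and fell by 0.75 (SE 0.145, adjusted p = 0.00422). The groups did not overlap for any of the 3 genes. Acaa1a fell by 0.45 (SE 0.0842, adjusted p = 0.00347), from 71.9 and 63.5 CPM to 49.2, 51.4 and 48.0 CPM. Without replicate 2 of conventional female serum the differences were -0.37 for Ppara (adjusted p = 0.165), -0.57 for Ehhadh (0.0696), -0.51 for Acot2 (0.0862) and -0.36 for Acaa1a (0.0593). Pex11a, Abcd3, Crot and Cpt2 fell by 0.35, 0.35, 0.35 and 0.33, and their calls were lost there as well. They were also lost without replicate 1 (Abcd3, Cpt2, Crot), replicate 2 (Pex11a) or replicate 3 (Abcd3, Cpt2, Pex11a) of male serum.

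Without replicate 2 of conventional female serum the count was 6 members (17.6%), of which 4 fell and 2 rose, beside 3.66% of all genes in that fit. The 2 that rose were Ucp2, with a log2 change of 1.26 (adjusted p = 0.00546 by edgeR), and Pdk4, with 0.57 (adjusted p = 0.0352). With all libraries they had values of 0.59 and 0.33 that did not pass. They are named after their values were seen. Of 8 hepatocyte markers Tat and Cps1 fell by 1.11 and 0.54 in male serum and Serpina1a rose by 0.31, with sums of 12735 to 13514 CPM against 11574 to 13380 CPM. The macrophage gene Cd68 and the cholangiocyte gene Spp1 fell by 0.38 and 0.70, and Sox9, another cholangiocyte marker, rose by 0.79. Of the 6 Kupffer cell and macrophage genes tested 5 had positive values, unlike Cd68. The part of these markers was not tested. Of the further lists, 8 of 33 peroxisomal genes fell, and Acox2 fell by 0.81, Phyh, an enzyme of branched-chain alpha-oxidation, by 0.55 and Hacl1, which acts in the same pathway, by 0.47. All 3 passed in every fit that left out 1 library. Of 17 mitochondrial genes Slc22a5 fell, by 0.31, a call that was lost without either conventional female library. Of 7 ketogenic genes 2 fell, the monocarboxylate transporter gene Slc16a6 by 0.61 and Acat1 by 0.51. Of 23 further targets tested 3 fell and 1 rose: Plin5, Angptl4 and Vldlr fell by 0.61, 0.55 and 0.54. The calls on Acat1, Plin5 and Angptl4 were lost without replicate 2 of conventional female serum and without replicate 1 or 3 of male serum. Among the receptor partners Rxrb, a retinoid X receptor, rose by 0.26, a call that was lost without either conventional female library or replicate 1 of male serum.

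**Figure D3:**
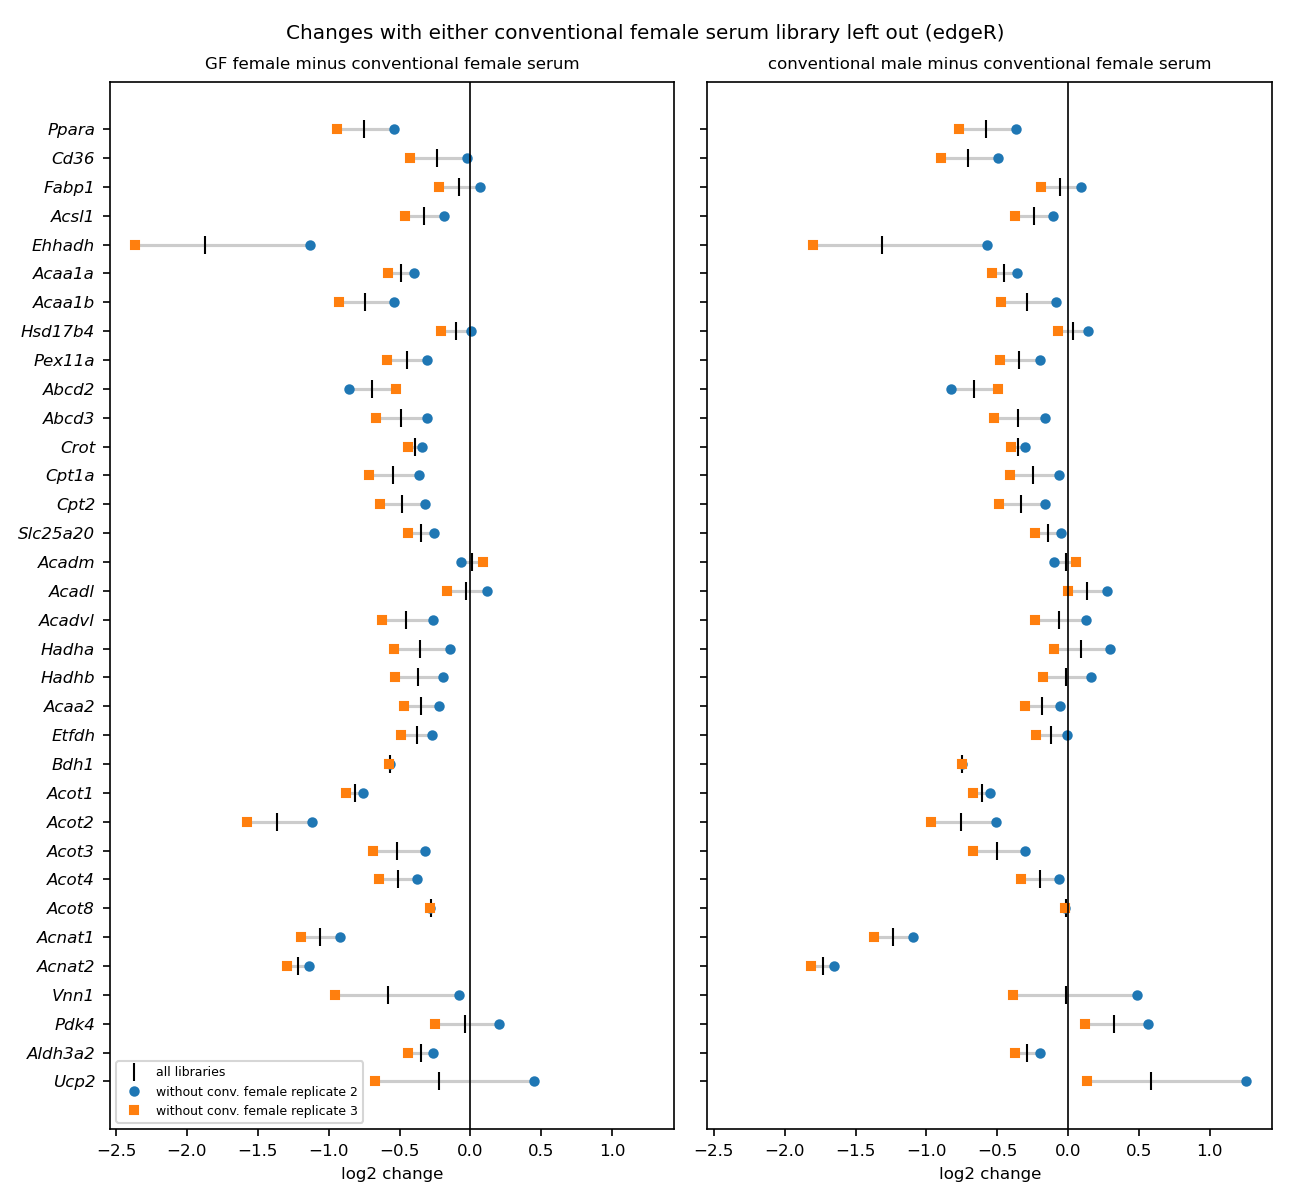
Log2 change of each member in germ-free (left) and conventional male serum (right) against conventional female serum, with all libraries (black tick), without replicate 2 (blue circle) and without replicate 3 (orange square) of conventional female serum. Ehhadh moves from -1.87 to -1.13 on the left and from -1.31 to -0.57 on the right without replicate 2, while Acot1, Acnat2 and Bdh1 move little.

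Germ-free female serum and conventional male serum were then compared directly. This comparison shares libraries with both of the comparisons above. No member passed by edgeR's quasi-likelihood test, beside 0.448% of all genes (0.184% higher and 0.264% lower), and limma-voom also called 0. DESeq2 called 3 falls in germ-free serum, Acadvl, Hadha and Acot2, beside 2.16% of the genes it tested. The median log2 change was -0.16 over the members and -0.01 over all genes, and 29 of the 34 values were negative. The libraries of the 2 groups did not overlap for 16 of the 34 members, beside 4234 of all 17405 genes. Of the marker genes Cd68 passed and rose by 0.65. Unlike Cd68, 4 of the 6 Kupffer cell and macrophage genes tested had negative values. Stellate cell and fibroblast markers summed to 27.1 to 29.7 CPM in germ-free and 13.3 to 18.2 CPM in male serum, and their part was not tested.

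The lowest adjusted p was that of Hadha, 0.0769, with a log2 change of -0.44 (SE 0.106). Hadha stood at 191.4 and 209.9 CPM in germ-free serum, below 247.0, 307.0 and 265.4 CPM in male serum. Acot2 had a change of -0.61 (SE 0.151, adjusted p = 0.0873 by edgeR), with 73.9 and 67.0 CPM below 95.5, 137.0 and 90.4 CPM. Ppara had a value of -0.17 (SE 0.13, adjusted p = 0.698), and its libraries overlapped at 19.7 and 17.7 against 19.0, 24.4 and 19.8 CPM. Acnat2 lay the other way, with a value of 0.52 (adjusted p = 0.443). With no low-count filter edgeR passed 9 members, Acot2, Ucp2 and Hadha among them. With only these 2 groups in the fit it passed Ucp2 (-0.81, adjusted p = 0.0138). The number of all genes that passed with no filter is given below. That of the 2-group fit is not reported here. Without replicate 1 of male serum, Hadha (-0.51, adjusted p = 0.0437) and Hadhb (-0.46, adjusted p = 0.0335) passed, 5.88% of the members beside 0.922% of all genes. Of the further PPAR-alpha targets Creb3l3, a liver transcription factor that works with the receptor in fasting, fell by 0.61 and Vldlr rose by 0.41. Both calls were lost without either germ-free library, with changes of -0.61 and -0.60 for Creb3l3 and 0.39 and 0.42 for Vldlr, and that on Vldlr also without replicate 2 of male serum (0.38).

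Across the 7 libraries of female hepatocytes that received vehicle, both conventional female libraries were above all 5 others for 14 of the 34 members (41.2%), beside 13.7% of all genes. These were Ppara, Ehhadh, Acaa1a, Pex11a, Abcd2, Abcd3, Crot, Cpt2, Bdh1, Acot1, Acot2, Acnat1, Acnat2 and the fatty aldehyde dehydrogenase Aldh3a2. Of the 10 genes of the mitochondrial carnitine shuttle and beta-oxidation, Cpt2 alone was among them.

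**Figure D4:**
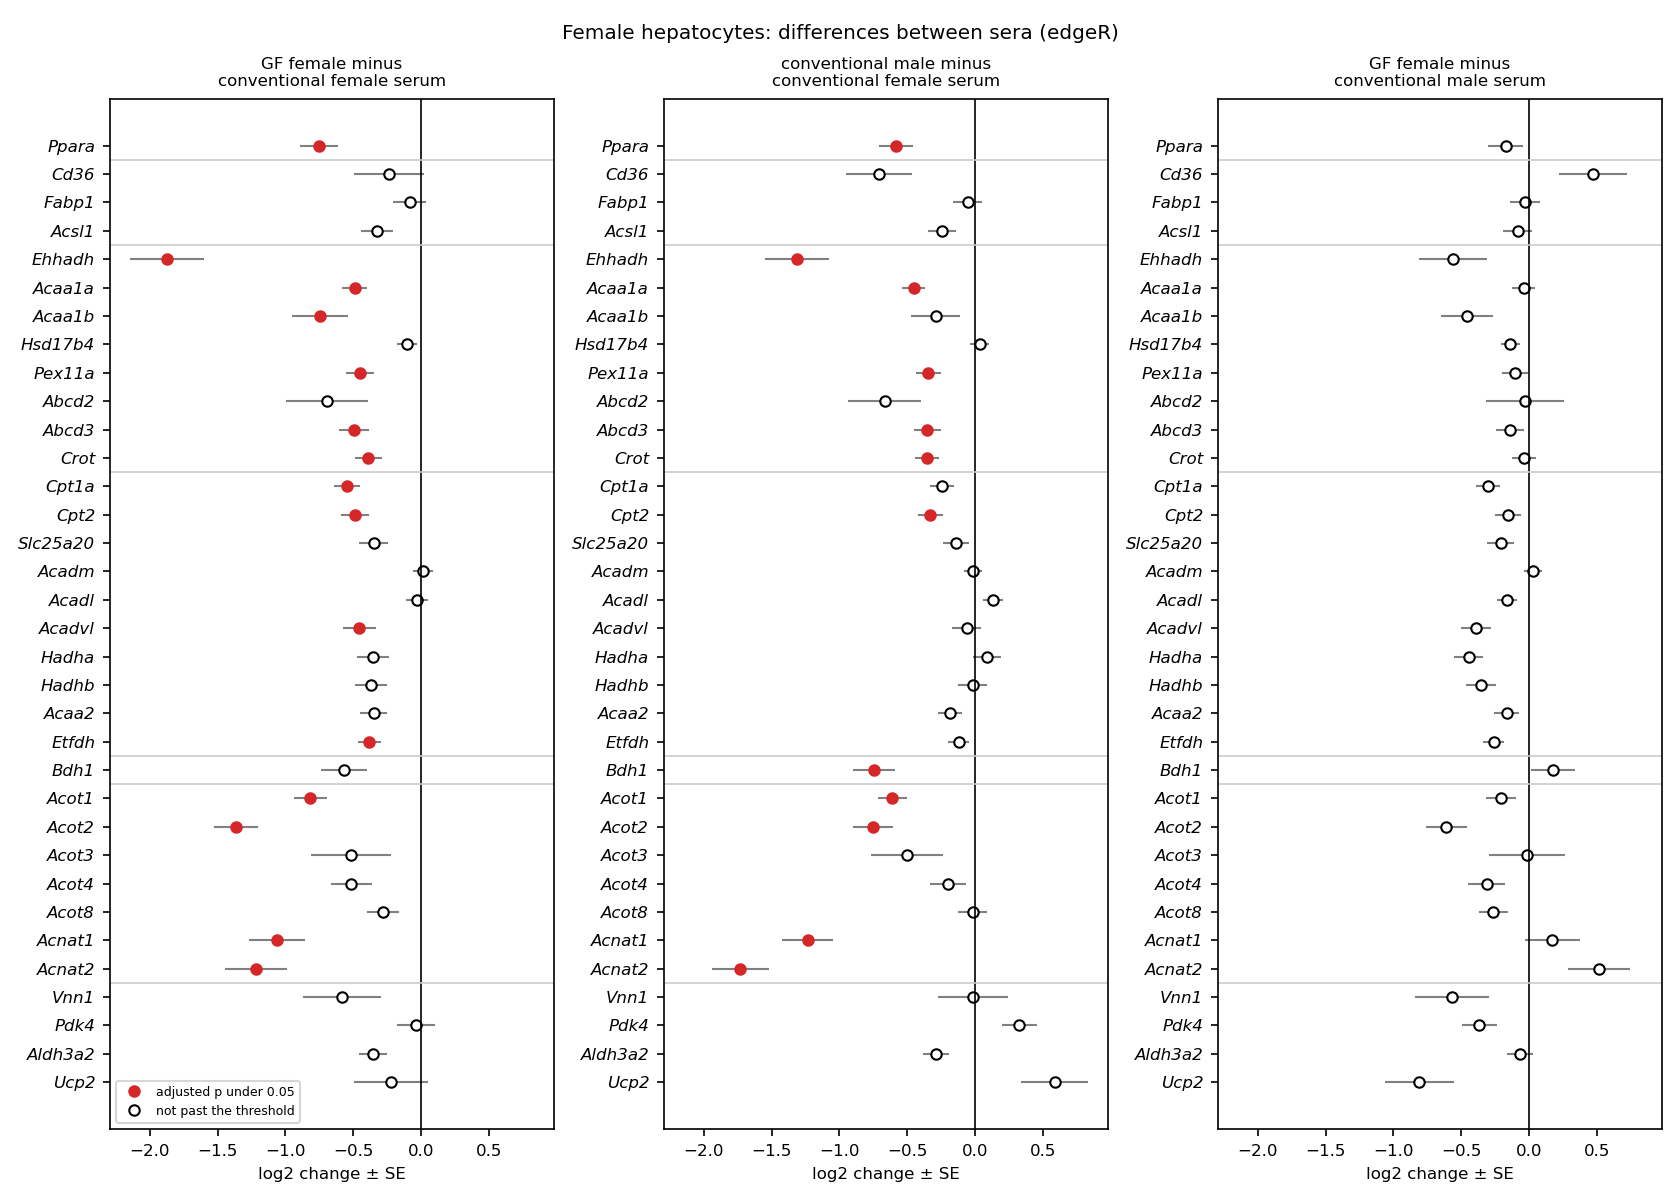
Log2 change (point) and SE (line) of each member in 3 comparisons of sera on female hepatocytes, grouped by role; filled points passed edgeR's test at an adjusted p under 0.05. The 15 and 12 filled points in the left and middle panels lie below 0, and no point in the right panel is filled.

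Male and female hepatocytes in the same conventional male serum differed in both directions. Of the 34 members 13 were higher and 8 lower in male cells, 61.8%, beside 36.7% of all genes (17.6% higher and 19% lower, by edgeR's quasi-likelihood test). Scaling by library size alone gave 10 higher and 11 lower, moved the median of all genes from -0.02 to -0.11, and ended the calls on Pex11a, Cpt2 and Acadvl. The members higher in male cells included both acyltransferases, 4 peroxisomal and 4 mitochondrial genes and 2 of 3 uptake genes. All 5 thioesterases were lower. The libraries of the 2 groups did not overlap for 24 of the 34 members, beside 8278 of all 17405 genes. Ppara itself stood at 21.3, 22.3 and 21.2 CPM in male cells and at 19.0, 24.4 and 19.8 CPM in female cells, with overlap, and its log2 difference of 0.04 (SE 0.116, adjusted p = 0.84 by edgeR) turned to -0.053 with scaling by library size alone. It was -0.034 without replicate 1 and -0.0075 without replicate 3 of female cells.

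Fabp1, the fatty acid binding protein of the hepatocyte cytosol (chr6:71199827-71205023, plus strand), differed most. It stood at 59.0, 56.7 and 62.1 CPM in male cells and at 6.56, 7.67 and 7.92 CPM in female cells. It was 8.02-fold higher in male cells (SE 0.0955 on the log2 scale, adjusted p = 9.99e-13 by edgeR), and the groups were far apart. The female cells stayed between 6.90 and 8.43 CPM in the other sera and with growth hormone. Cd36 was 3.23, 3.13 and 2.62 CPM in male cells against 1.26, 1.92 and 1.49 CPM in female cells, a log2 difference of 0.94. The synthetase Acsl1, which activates long-chain fatty acids, did not pass (-0.13).

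The thioesterases of the chromosome 12 cluster were lower in male cells throughout. Acot1 was 4.46, 3.65 and 5.10 CPM in male cells against 21.7, 22.2 and 20.6 CPM in female cells, a log2 difference of -2.29 (SE 0.115, adjusted p = 2.39e-10 by edgeR). Acot2 was 48.9, 47.0 and 48.9 CPM against 95.5, 137.0 and 90.4 CPM, a difference of -1.16 (SE 0.135, adjusted p = 5.67e-06). Acot3 was 0.184, 0.357 and 0.317 CPM against 1.31, 1.59 and 2.30 CPM, a difference of -2.58 (SE 0.319, adjusted p = 9.97e-06). No male library reached a female one in any of the 3 genes. Acot4 and Acot8, which act in peroxisomes, had differences of -0.80 and -0.36, and the call on Acot8 was lost without replicate 1 of male cells. Acnat2 went the other way, with 9.13, 7.11 and 7.67 CPM against 1.87, 2.81 and 2.96 CPM, a difference of 1.64 (SE 0.199, adjusted p = 7.87e-06), and Acnat1 differed by 1.22. The difference of Bdh1 was -0.58, with lower levels in male cells.

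Among mitochondrial genes Acadm was 170.9, 167.4 and 169.1 CPM in male cells and 109.5, 121.7 and 123.1 CPM in female cells. Its difference was 0.52 (SE 0.06, adjusted p = 5.04e-06 by edgeR). Acaa2, the last enzyme of the spiral, was 124.9, 123.8 and 121.5 CPM against 73.6, 88.9 and 76.4 CPM, a difference of 0.63 (SE 0.0823, adjusted p = 1.64e-05). Neither gene overlapped between the groups. Cpt2 and Acadvl differed by 0.27 and 0.26, and both calls were lost without replicate 1 or 3 of female cells or replicate 1 of male cells, that on Acadvl also without replicate 2 or 3 of male cells. Cpt1a, Hadha, Hadhb, Acadl, Slc25a20 and Etfdh did not pass, with values from -0.14 to 0.12. Peroxisomal genes split: Ehhadh, Acaa1b, Crot and Pex11a were higher in male cells by 0.85, 0.82, 0.33 and 0.29, and Abcd2 had a difference of -1.97. Pdk4 was 191.8, 193.0 and 204.4 CPM in male cells, far below 509.3, 481.1 and 561.1 CPM in female cells, a difference of -1.40 (SE 0.118, adjusted p = 1.50e-07). Ucp2 was higher by 0.73, except that the call was lost without replicate 3 of male cells (adjusted p = 0.0649).

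Markers moved with this comparison: 5 of 8 hepatocyte markers were higher in male cells and Hnf4a was lower, and 6 of 7 endothelial markers were higher, with sums of 49.04 to 52.11 CPM against 15.2 to 17.4 CPM. Kupffer cell and macrophage markers summed to 149 to 169 CPM against 80.2 to 100.1 CPM, with a call on Cd68 alone. Most of these sums was Cd68, with means of 154.1 CPM in male and 79.0 CPM in female cells. Of the 6 genes tested in that list 5 had negative values. Among cholangiocyte markers Epcam and Cftr were higher by 2.42 and 2.36 on the log2 scale and Sox9 had a difference of -0.82. Among stellate cell and fibroblast markers Dcn and Pdgfrb were higher by 0.55 and 0.82 and Col1a1 had a difference of -1.55. Their part in the differences was not tested. Of the further lists, 13 of 33 peroxisomal genes were higher and 4 lower, with Scp2 and Hacl1 higher by 1.33 and 1.31. Of 17 mitochondrial genes 5 were higher and 1 lower, with Acot9 and Acad11 differing by 0.57 and 0.52 and Acad12 by -0.49. Of 7 ketogenic genes Bdh2 was higher, by 1.82. Of 23 further targets 9 were higher and 6 lower; Fgf21 differed by 1.75, Acot5 by -2.52 and Cyp4a10, a fatty acid omega-hydroxylase, by -1.28. Of 18 partners and coregulators 10 were lower and none higher, with differences of -1.18 for Nrip1 and -0.93 for Rxrg.

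**Figure D5:**
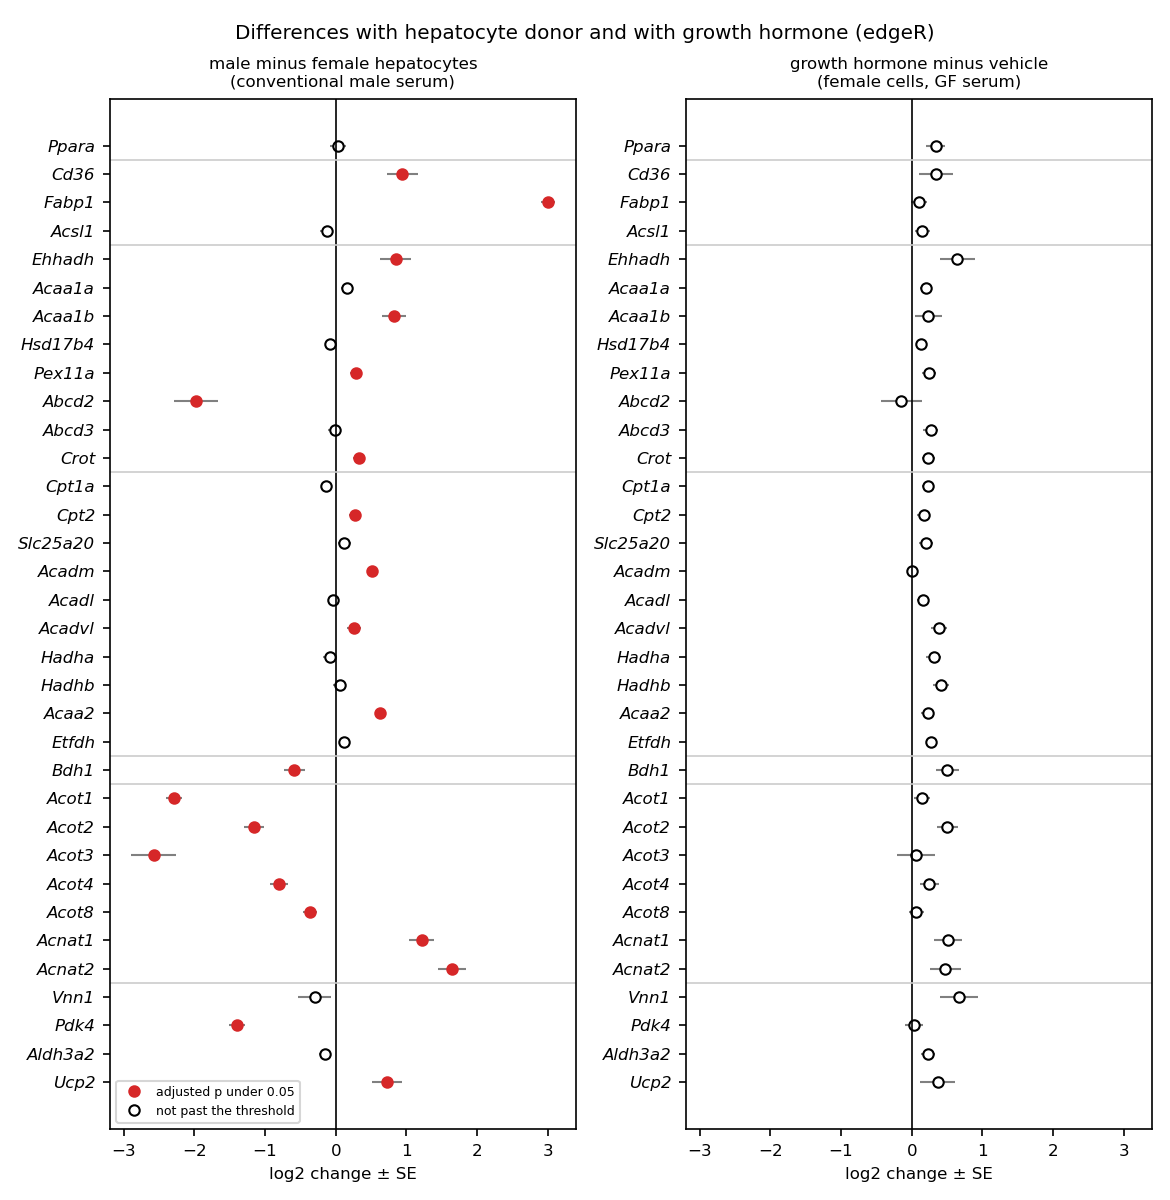
Log2 difference (point) and SE (line) of each member between male and female hepatocytes (left) and between growth hormone and vehicle (right); filled points passed edgeR's test at an adjusted p under 0.05. On the left 13 filled points lie above 0, with Fabp1 farthest, and 8 below; on the right no point is filled and 33 of 34 lie above 0.

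Growth hormone was added to female hepatocytes in germ-free serum, which asks whether a short exposure to the hormone changes their expression. No member passed by edgeR's quasi-likelihood test, beside 0.586% of all genes (0.511% higher and 0.0747% lower), and limma-voom also called 0. DESeq2 called 4 rises, Acadvl, Hadhb, Etfdh and Acot2, beside 1.81% of the genes it tested. Values were positive for 33 of 34 members, beside 8652 of 17405 genes. The 2 vehicle libraries are also those of germ-free serum in the comparisons above, where 33 of 34 changes against conventional female serum were negative. The values here are therefore not independent of those. The median log2 change was 0.23 over the members and -0.00 over all genes. The libraries of the 2 groups did not overlap for 24 of the 34 members, beside 5563 of all 17405 genes.

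Hadhb had the lowest adjusted p, 0.126 by edgeR, with a log2 change of 0.41 (SE 0.109). It was 89.4, 80.6 and 82.5 CPM with the hormone and 62.0 and 64.5 CPM with vehicle. Ehhadh was 42.5, 43.6 and 42.2 CPM with the hormone and 27.6 and 27.1 CPM with vehicle, a value of 0.65 (SE 0.251, adjusted p = 0.303). Acot2 was 108.2, 96.8 and 94.6 CPM against 73.9 and 67.0 CPM, a value of 0.50 (SE 0.15, adjusted p = 0.178). In these 3 genes every hormone library was above both vehicle ones. Their SE draws on the spread within all 5 groups. With only these 2 groups in the fit, edgeR passed Ehhadh (0.64, SE 0.0697, adjusted p = 0.000665), Hadhb (0.41, adjusted p = 0.02) and Acot2 (0.50, adjusted p = 0.0124). All 3 also passed with no low-count filter, a fit in which their SE were smaller (Ehhadh 0.0905, Hadhb 0.0854 and Acot2 0.0842). The numbers of all genes that passed in these fits are given below. Ppara was 26.4, 21.3 and 23.1 CPM against 19.7 and 17.7 CPM, a value of 0.34 (SE 0.13, adjusted p = 0.301). Abcd2 was the 1 member with a negative value, -0.15. None of the marker genes passed, while the hepatocyte markers summed to 12352 to 14681 CPM with the hormone and 11237 to 11763 CPM with vehicle. Sums were lower with the hormone for Kupffer cell and macrophage markers (88.5 to 107.7 against 125.9 to 134.5 CPM) and for stellate cell and fibroblast markers (14.5 to 22.1 against 27.1 to 29.7 CPM), without overlap. Most of the Kupffer cell and macrophage sum was Cd68, with means of 95.8 CPM with the hormone and 123.8 CPM with vehicle. The part of these markers was not tested. Of the other lists 1 gene passed, Angptl4, an inhibitor of lipoprotein lipase, which rose by 0.80 (adjusted p = 0.0339); it did not pass without either vehicle library (0.74 and 0.87, adjusted p = 0.375 and 0.246) or without replicate 1 or 3 of the hormone group (0.74 and 0.84, adjusted p = 0.128 and 0.0764).

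Some counts may hold reads of a neighbour or a copy, since the sources used here give neither the rule for shared reads nor the strand setting. Exons of Acadvl overlapped those of Dvl2 on the other strand over 42.9% of their length, and smaller overlaps were 12.3% for Acot8 with Snx21, 11.5% for Acot3 with Gm49366, 11.4% for Acaa1b with Dlec1 and 6.57% for Acaa1a with Myd88. Windows of 100 bases of transcript were shared between Acaa1a and Acaa1b (21.6% of those of Acaa1a), Acot1 and Acot2 (16.5% of those of Acot1) and Acnat1 and Acnat2 (16.6% of those of Acnat1). Values of these pairs are uncertain to that extent. Hadhb shared 52.8% of its windows with the pseudogene Gm13910, which held 55.0% as many counts as Hadhb. In germ-free against conventional female serum Gm13910 had a log2 change of -0.39 (SE 0.111) beside -0.37 for Hadhb (SE 0.119).

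Hadha and Hadhb are transcribed away from each other, with 85 bases between their annotated starts, and their log2 changes were alike in germ-free serum (-0.35 and -0.37) and with growth hormone (0.31 and 0.41). Both comparisons hold the same 2 germ-free vehicle libraries and are not independent. The changes of Hadha and Hadhb had opposite signs in male against conventional female serum (0.09 and -0.02) and between male and female cells (-0.09 and 0.05). In the reported fit of all 5 groups edgeR passed neither gene in any of these comparisons, alike or opposite. The stretch between the starts is shown because it lies before both genes.
Hadha-Hadhb, chr5:30155163-30155247, plus strand: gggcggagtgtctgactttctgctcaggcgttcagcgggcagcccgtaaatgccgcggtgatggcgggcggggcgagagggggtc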

How the data were processed

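Gene-level exon counts were deposited by the authors as 1 table of raw counts; per the submitters' processing notes, reads were aligned with STAR 2.4.0i to mm10. The counting program, annotation and strand setting are not stated in those notes. Of 15 labelled samples 13 libraries were used: 2 columns carry the same header and were not assigned to a sample, and germ-free serum replicate 1 has no column of its own that names it.

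Counts were tested in R 4.3.3 with edgeR 4.0.16 (quasi-likelihood test, TMM factors, genes kept by filterByExpr with a minimum count of 10, 17405 of 38087). One model held the 5 groups (8 residual degrees of freedom, biological coefficient of variation 9.02%). Adjusted p-values are Benjamini-Hochberg over all genes tested, with a threshold of 0.05, and each p printed without another tool's name is edgeR's. Alternatives used limma 3.58.1 (voom), DESeq2 1.42.0, library-size scaling, no low-count filter, only the 2 groups compared, a replicate block, leaving out each library, and leaving out the 2 libraries richest in Xist. Scripts were tested on simulated data. Replicates differed by more than sampling noise (chi-square per degree of freedom 5.46 to 53.4 over genes with at least 20 counts), so none was counted as a duplicate. Full statistics were given for up to 8 members per comparison by adjusted p, and for Ppara, and up to 3 called genes of each further list with a mean count of at least 50, by size of change; some of these are not reported here. The members and lists were chosen with earlier results of these data known. Coordinates are from GENCODE M21 (mm10) and promoters from RefSeq (GRCm38.p6).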

Additional observations from a re-analysis of the deposited data

How the results depend on the processing

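Member counts were within 1.5 times of the reported ones under DESeq2, limma-voom, library-size scaling and the 2-group fits except as follows. With no low-count filter 24 members passed in germ-free against conventional female serum (1731 of all genes), 9 in germ-free against male serum (622) and 10 with growth hormone (796). DESeq2 called 3 members in germ-free against male serum (311 genes) and 4 with growth hormone (272). With only the 2 groups in the fit, 6 members passed in male against conventional female serum (468 genes), 1 in germ-free against male serum and 3 with growth hormone (156), and 611 genes passed in germ-free against conventional female serum. Without both libraries richest in Xist, 5 members passed in germ-free against conventional female serum (367 genes) and 5 in germ-free against male serum (286), and 825 genes in male against conventional female serum. The cause was not tested.

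Leaving out 1 library at a time gave 4 to 22 members in germ-free against conventional female serum (274 to 1225 genes), 6 to 14 in male against conventional female serum (663 to 1652), 0 to 2 in germ-free against male serum (2 to 160), 18 to 21 between male and female cells (5248 to 6090) and 0 with growth hormone (33 to 190). The difference of Ppara between male and female cells was -0.053 with library-size scaling and -0.034 to 0.16 with 1 library left out; it was -0.034 without replicate 1 and -0.0075 without replicate 3 of female cells.

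Samples with the same replicate number deviated together weakly or not at all (correlations of -0.016 to 0.126), so the numbers were not treated as pairs. The highest values were between male and female cells (0.038, 0.044 and 0.126) and with growth hormone (0.061 and 0.090). Samples with different numbers had -0.085 to 0.040 and -0.090 to 0.021 in these 2 comparisons. With a replicate block 14, 11, 0, 20 and 0 members passed in germ-free against conventional female, male against conventional female, germ-free against male serum, male against female cells and growth hormone, and 981, 1189, 31, 6266 and 62 of all genes. Groups of 2 and 3 libraries, and levels under 1 CPM for Acot3 and Abcd2 in male cells, limit the precision.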
